A study of Mus musculus with 6 samples.

Results

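The syndecans and glypicans are the 2 main families of heparan sulfate proteoglycans on the cell surface, and 9 of their genes were followed here in cultured mouse Schwann cells (SCs): the syndecans *Sdc1*, *Sdc2*, *Sdc3* and *Sdc4*, and the glypicans *Gpc1*, *Gpc2*, *Gpc3*, *Gpc4* and *Gpc6*. They were taken by name, through the Ensembl identifier, from the 55401 genes of the deposited count table, and all 9 belonged to the 22318 genes that had 2 or more counts in 5 or more libraries and were tested. The other glypican gene, *Gpc5*, had 4, 0 and 0 counts in the WT cultures and 0, 0 and 2 counts in the *Plxnb1-/-* cultures, and was not tested. The data are bulk RNA-seq of poly(A) RNA from SCs that were grown out of dorsal root ganglia taken from adult WT (3 cultures) or *Plxnb1-/-* animals (3 cultures). The study's methods name heterozygous littermates beside WT as controls in general, while the labels of these libraries give WT. *Plxnb1* encodes Plexin-B1, a receptor for semaphorins, and the mutant allele carries a gene-trap cassette in every cell, so the exons before the cassette can still be transcribed. Both genotypes were expanded in the same medium with forskolin, neuregulin and serum, and fibroblasts were depleted with an antibody to Thy1. The study's methods name passages 3 to 5 and a minimum purity that leaves room for other cells. They give no purity for each of these libraries. The labels do not say whether the 3 cultures of a genotype came from separate animals, so that the p-values measure the spread between these cultures, which may be partly technical. The sex of the mice is not given in the sources used here.

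Syndecans cross the plasma membrane with a short cytoplasmic tail, whereas glypicans are held at the outer face by a lipid anchor. Both carry long, sulfated heparan sulfate chains, with which they bind growth factors, morphogens and matrix proteins such as laminin, fibronectin and collagens, and present them to signaling receptors or integrins. In peripheral nerve, syndecan-3 and glypican-1 are known as proteoglycans of SCs that bind collagen type V and laminin, and syndecan-4 is known for its work with integrins in focal adhesions.

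Total counts lay between 59252048 and 77280964 per library, so that 3 counts corresponded to 0.0388 to 0.0506 CPM (counts scaled to the library size, with TMM, edgeR's factor for library composition). This limit of detection accounts for counting error and nothing else. The targeted gene separated the genotypes, with *Plxnb1* reading 61.8, 45.4 and 96.4 CPM in the WT and 13.1, 16.6 and 18.6 CPM in the *Plxnb1-/-* cultures (log2 fold change −2.08, SE 0.25, adjusted p = 0.0449 by edgeR's quasi-likelihood test). Its adjusted p was 2.74e-06 by DESeq2. It reached 0.413 over the alternatives that kept all libraries, and 0.254 by edgeR when 1 library was left out. The 9 SC markers were all detected, the lowest being *S100b* at a mean of 7.60 CPM, and the fibroblast markers were detected as well, from *Lum* at 42.6 CPM to *Col1a1* at 5639 CPM. Whether the latter came from fibroblasts or from SCs cannot be told apart in these libraries. Together the SC markers summed to 2340 to 2779 CPM in WT and 2812 to 3172 CPM in *Plxnb1-/-* cultures. The 7 fibroblast markers summed to 12533 to 15160 CPM in WT and 11466 to 11929 CPM in *Plxnb1-/-* cultures, and 4 of the 7 (*Thy1*, *Pdgfra*, *Col1a1* and *Col1a2*) were lower in *Plxnb1-/-* with no overlap of the genotypes, while *Dcn*, *Lum* and *Pdgfrb* overlapped, with log2 fold changes of −0.01, 0.08 and −0.13. Of the 9 SC markers, 4 were higher with no overlap, and of all tested genes 19.7% had no overlap in either direction. WT replicate 2 had the lowest SC sum (2340 CPM) and the highest fibroblast sum (15160 CPM) of the 6 libraries. It also had the highest sum of mural cell markers (1770 CPM, against 1302 and 1432 CPM in the other WT cultures). The mural sum was 1108 to 1234 CPM in *Plxnb1-/-* cultures, below that of every WT culture. The SC and fibroblast sums exceeded those for satellite glia (981 to 1123 CPM in WT, 1179 to 1195 CPM in *Plxnb1-/-*), neurons (142 to 156 and 157 to 175 CPM), endothelium (57.4 to 76.9 and 59.9 to 65.7 CPM) and macrophages (25.5 to 28.7 and 29.7 to 33.4 CPM). Across these lists 0 marker genes were at 0 throughout. Most of the neuron sum was *Tubb3* (mean 143 CPM, against 0.441 CPM for *Rbfox3*). Most of the endothelial sum was *Cdh5* (58.8 CPM, against 0.655 CPM for *Tie1*), and *Cdh19* stands in both the SC and the satellite glia list. These sums are therefore no measure of cell content. In bulk RNA, fewer cells of a type and less RNA per cell cannot be told apart.

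The first question was whether loss of Plexin-B1 changed the level of any syndecan or glypican. None of the 9 genes passed edgeR's test (adjusted p below 0.05 over all 22318 genes and an absolute log2 fold change above 0.25), where 8 genes in all, or 0.0358%, passed. *Sdc3* and *Sdc4* were higher and *Gpc4* was lower in *Plxnb1-/-* cultures by 1.16-fold, 1.22-fold and 0.869-fold, and these 3 had an unadjusted p below 0.05, which 13.7% of all tested genes had. The same 3 genes had no overlap between the genotypes, against the same 19.7% of all tested genes. By DESeq2 1 of the 9 members, *Sdc4*, passed the same cutoffs, as did 2.24% of the 14960 genes to which DESeq2 gave an adjusted p. In edgeR without a filter on low counts *Sdc4* passed as well, beside 0.949% of 31191 genes. Taken over the members, 6 were higher and 3 lower, with a median log2 fold change of 0.06 (0.00 over all tested genes). The median size of the change, irrespective of sign, was 0.13 for the members and 0.12 for all tested genes.

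**Figure D1:**
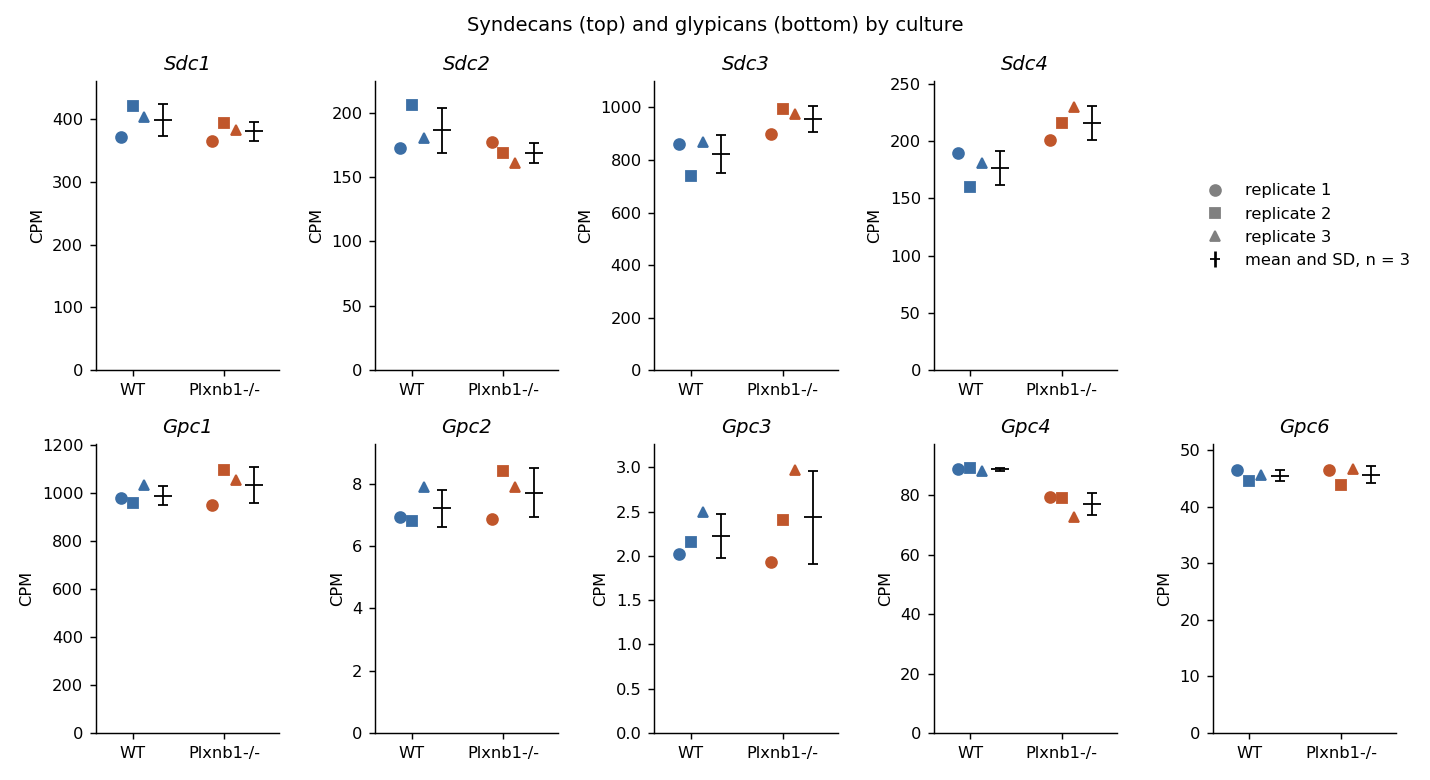
CPM (vertical axes, each starting at 0) of the 4 syndecans in the upper row and the 5 glypicans in the lower row, for 3 WT (blue) and 3 *Plxnb1-/-* (orange) cultures; symbols mark the replicate number, and the bar gives the mean and SD. The genotypes do not overlap for *Sdc3*, *Sdc4* and *Gpc4*, with *Sdc3* at 739 to 869 CPM in WT and 900 to 994 CPM in *Plxnb1-/-*.

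Among the syndecans, *Sdc4* (chr2:164424247-164443887, minus strand, GRCm38) had the largest change. Syndecan-4 is widely expressed, sits in focal adhesions, and binds fibronectin with its heparan sulfate chains and protein kinase C alpha with its tail. It was at 189, 160 and 181 CPM in WT replicates 1, 2 and 3, and at 201, 216 and 230 CPM in *Plxnb1-/-* replicates 1, 2 and 3. Every *Plxnb1-/-* culture lay above every WT culture, and the lowest mutant value was 6.11% above the highest WT value. The means were 177 ± 14.9 CPM in WT and 216 ± 14.6 CPM in *Plxnb1-/-* (SD, n = 3 each). This is a log2 fold change of 0.29 (SE 0.07, 95% interval 0.13 to 0.45), with an adjusted p of 0.273 by edgeR, 0.0207 by DESeq2 and 0.0341 by edgeR without the filter, and up to 0.433 over the alternatives that kept all libraries and 0.683 when 1 library was left out. The gene ranked 239 of 22318 by edgeR's p. The call therefore depended on the tool and on the filter, while the estimate did not.

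*Sdc3* (chr4:130792537-130826319, plus strand) encodes syndecan-3, the largest syndecan and the one typical of the nervous system, a receptor for the growth factor pleiotrophin. It had the highest level of the syndecans, at 859, 739 and 869 CPM in the WT cultures and 900, 994 and 974 CPM in the *Plxnb1-/-* cultures. The genotypes did not overlap, but the gap between the nearest cultures was only 3.60%. The means were 822 ± 72.6 CPM in WT and 956 ± 49.2 CPM in *Plxnb1-/-* (SD, n = 3 each). The log2 fold change of 0.22 (SE 0.07, 95% interval 0.06 to 0.37) passed neither test, with an adjusted p of 0.289 by edgeR and 0.0961 by DESeq2, the lowest of a range that reached 0.433 over the alternatives that kept all libraries and 0.683 when 1 library was left out. Antisense genes overlap its exons: *Gm26716* over 415 bp, or 6.93% of the exon length, and *Gm12970* over 48 bp with at most 5 counts in any library. *Gm26716* averaged 46.4 ± 4.68 CPM in WT and 55.0 ± 1.15 CPM in *Plxnb1-/-* (SD, n = 3 each), a log2 fold change of 0.24. The 415 bp are the whole exon length of *Gm26716*, so this fold change may not be separate from that of *Sdc3*. The strand setting of the counting is not given in the sources used here, and reads of *Sdc3* and *Gm26716* on the shared stretch cannot be told apart.

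WT replicate 2, the culture with the highest fibroblast and the lowest SC marker sum, had the lowest *Sdc3* and *Sdc4* and the highest *Sdc1* and *Sdc2* of the 3 WT cultures. Without it the log2 fold change was 0.22 for *Sdc4* and 0.15 for *Sdc3*, with adjusted p = 0.319 and 0.406 by edgeR. Leaving out *Plxnb1-/-* replicate 3 instead gave 0.24 for *Sdc4* and 0.20 for *Sdc3*. The part of marker levels in these differences was not tested beyond leaving out WT replicate 2.

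*Sdc1* and *Sdc2* were not higher in *Plxnb1-/-* cultures. *Sdc1* (chr12:8771323-8793715, plus strand) encodes syndecan-1, best known from epithelia and plasma cells. Its values were 371, 421 and 404 CPM in WT and 365, 394 and 382 CPM in *Plxnb1-/-*. The genotypes overlapped, and the log2 fold change of −0.07 (SE 0.06, 95% interval −0.19 to 0.06, adjusted p = 0.621 by edgeR) lay within the spread between cultures. Its near copies *Gm16407*, with 94.9% identity over 468 bp, and *Gm14724*, with 90.7% over 270 bp, had 0 counts in all 6 libraries.

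*Sdc2* (chr15:32920723-33034935, plus strand) encodes syndecan-2, typical of fibroblasts and other mesenchymal cells and close in sequence to syndecan-4 in its tail. It was at 172, 206 and 180 CPM in WT and at 177, 168 and 161 CPM in *Plxnb1-/-*. The genotypes overlapped through *Plxnb1-/-* replicate 1, which lay above WT replicate 1. The log2 fold change was −0.14 (SE 0.07, 95% interval −0.29 to 0.01, adjusted p = 0.398 by edgeR). Without WT replicate 2, the highest of the 6 values, it was −0.06. A gene with a partial copy, *Gm32618*, shares 284 bp with *Sdc2* at 93.7% identity.

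**Figure D2:**
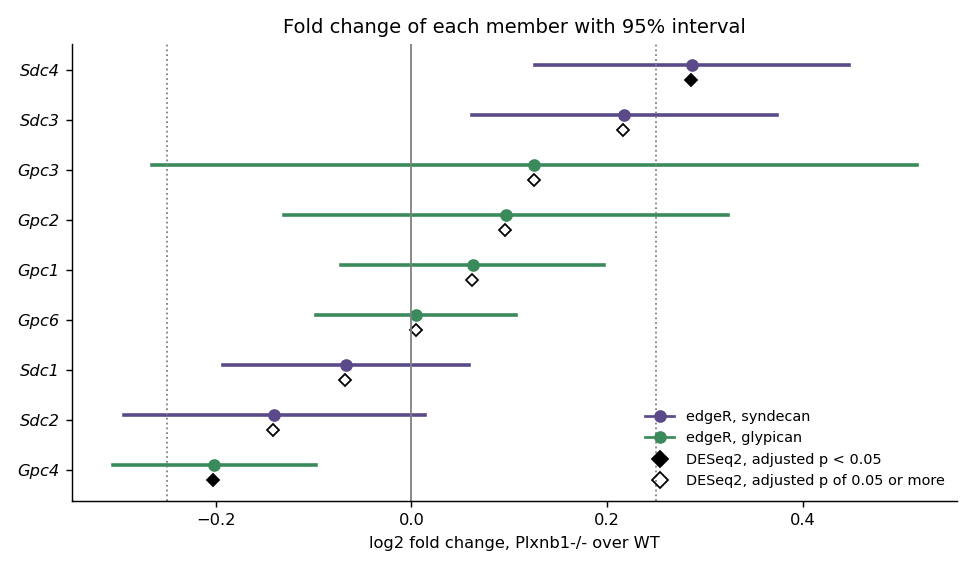
The log2 fold change of each member, *Plxnb1-/-* over WT (horizontal axis), from edgeR with its 95% interval (circles and lines, syndecans purple, glypicans green) and from DESeq2 (diamonds, filled where the adjusted p is below 0.05); dotted lines mark the cutoff of 0.25 in either direction. The intervals of *Sdc4*, *Sdc3* and *Gpc4* leave out 0, and of the filled diamonds (*Sdc4* and *Gpc4*) only that of *Sdc4*, at 0.29, lies beyond a dotted line.

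Of the glypicans, only *Gpc4* (chrX:52053021-52165252, minus strand) separated the genotypes. Glypican-4 is known in the brain as a factor that astrocytes release to promote synapse formation. It was at 88.9, 89.3 and 88.0 CPM in WT and at 79.4, 79.2 and 72.8 CPM in *Plxnb1-/-*. The WT cultures lay within a narrow band, and the highest *Plxnb1-/-* value was 9.79% below the lowest WT value. The means were 88.7 ± 0.622 CPM in WT and 77.1 ± 3.78 CPM in *Plxnb1-/-* (SD, n = 3 each). This is a log2 fold change of −0.20 (SE 0.05, 95% interval −0.31 to −0.10), with an adjusted p of 0.266 by edgeR. It ranked 140 of 22318 by edgeR's p, ahead of *Sdc4*. DESeq2 gave an adjusted p of 0.0330, the lowest of a range that reached 0.433 over the alternatives that kept all libraries and 0.683 when 1 library was left out, but the fold change lay inside the cutoff of 0.25, and the gene was not called by either tool. Without WT replicate 2 the log2 fold change was −0.19, and without *Plxnb1-/-* replicate 3 it was −0.16.

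*Gpc1* (chr1:92831645-92860779, plus strand) encodes glypican-1, the member with the highest level in reads as well as per length. It was at 979, 958 and 1031 CPM in WT and 950, 1096 and 1053 CPM in *Plxnb1-/-*, and the lowest of the 6 values was a *Plxnb1-/-* culture. The log2 fold change was 0.06 (SE 0.06, 95% interval −0.07 to 0.20, adjusted p = 0.675 by edgeR). On the opposite strand the gene *Ankmy1* overlaps 977 bp, or 18.9%, of the exons of *Gpc1*, and its own log2 fold change was also 0.06.

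*Gpc6* (chr14:116925315-117976544, plus strand), whose product is the closest relative of glypican-4, was at 46.4, 44.5 and 45.5 CPM in WT and 46.4, 43.9 and 46.6 CPM in *Plxnb1-/-*. The cultures of the 2 genotypes were interleaved. The log2 fold change was 0.00 (SE 0.05), and its 95% interval of −0.10 to 0.11 was among the narrowest of the members, so that a change of 0.25 in either direction lay outside it. The adjusted p was 0.974 by edgeR. The difference between *Gpc4* and *Gpc6* in their response was not tested.

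The remaining glypicans were scarce. *Gpc2* (chr5:138273655-138280005, minus strand) encodes cerebroglycan, a glypican of developing neurons, and was at 6.92, 6.82 and 7.89 CPM in WT and 6.86, 8.40 and 7.90 CPM in *Plxnb1-/-*. Its log2 fold change was 0.10 (SE 0.10, 95% interval −0.13 to 0.32, adjusted p = 0.708 by edgeR). Its level is uncertain, since the gene model *Gm43720* overlaps 55.6% of its exon length on the same strand. The counting could have split or dropped shared reads, or counted them for both genes. *Gpc3* (chrX:52272426-52613950, minus strand) encodes glypican-3, a regulator of body growth, and lies beside *Gpc4* on the X chromosome. It lay at 2.02 to 2.50 CPM in WT and 1.93 to 2.97 CPM in *Plxnb1-/-*, or 126 to 206 counts per library. Its 95% interval was the widest of the members, from −0.27 to 0.52 around a log2 fold change of 0.13 (SE 0.17, adjusted p = 0.790 by edgeR). The interval holds both 0 and the 0.29 seen for *Sdc4*, and the 3 *Plxnb1-/-* cultures differed among themselves with a coefficient of variation of 21.4%.

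To compare levels between genes, CPM was divided by the exon length of each gene in kb. On this scale the order was *Gpc1*, *Sdc3*, *Sdc1*, *Sdc4*, *Sdc2*, *Gpc4*, *Gpc6*, *Gpc2* and *Gpc3*, and it was the same in each of the 6 libraries. *Gpc1* had 192 ± 7.36 CPM per kb in WT and 200 ± 14.5 in *Plxnb1-/-* (SD, n = 3 each, as for the values that follow). *Sdc3* had 137 ± 12.1 and 160 ± 8.22 CPM per kb, and *Sdc1* 105 ± 6.62 and 99.9 ± 3.79. These 3 genes had the highest levels of the 9 members in either genotype. *Sdc4* followed with 69.4 ± 5.87 and 84.6 ± 5.74 CPM per kb, and *Sdc2* with 52.8 ± 4.93 and 47.9 ± 2.22. *Gpc4* came next with 33.5 ± 0.235 and 29.1 ± 1.43 CPM per kb, above a step down to *Gpc6* at 7.08 ± 0.155 and 7.10 ± 0.239, where the ratio of the means was 4.73 in WT and 4.10 in *Plxnb1-/-*. *Gpc2*, at 1.69 ± 0.139 and 1.81 ± 0.184 CPM per kb, and *Gpc3*, at 0.826 ± 0.0927 and 0.905 ± 0.194, ended the order. Within either genotype the values of neighbors in this order did not overlap. The nearest neighbors were *Sdc1* and *Sdc4* in *Plxnb1-/-*, with a ratio of means of 1.18 against 1.51 in WT.

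The order depended on the length used. The FPKM values that the authors deposited are scaled by the whole span of the gene, introns included, which exceeds the exon length 1.49-fold for *Gpc2* but 42.3-fold for *Gpc4*, 127-fold for *Gpc3* and 163.6-fold for *Gpc6*. On that scale *Gpc2*, at 1.13 FPKM in WT, moved ahead of *Gpc4* at 0.787 FPKM and *Gpc6* at 0.0431 FPKM. The 6 other members kept their places.

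**Figure D3:**
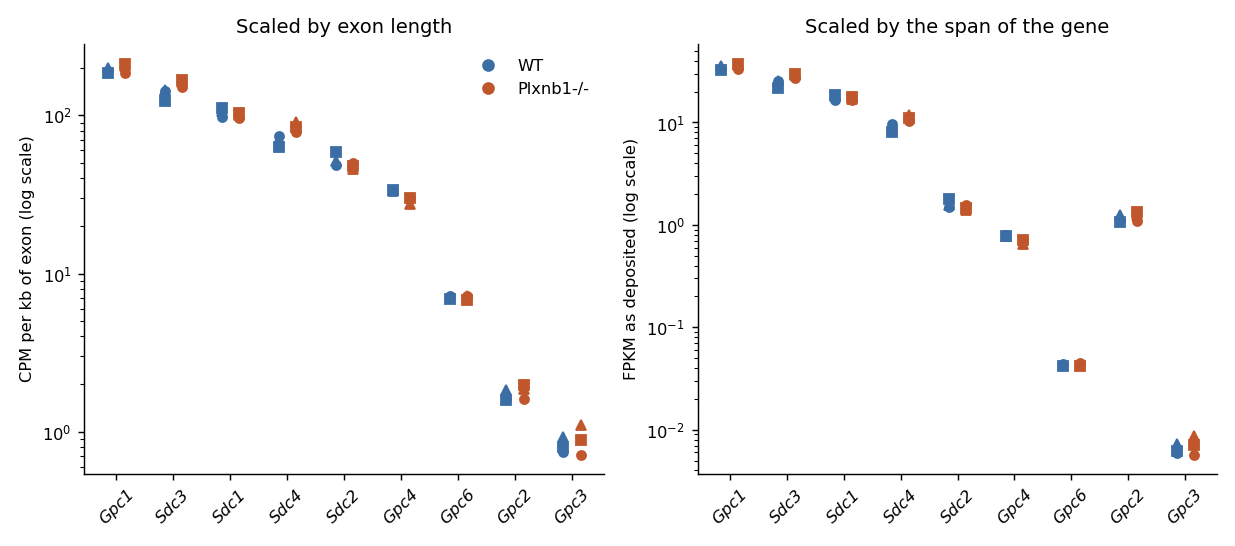
Level of each member in each culture on a log axis, as CPM per kb of exon (left) and as the deposited FPKM, which divides by the span of the gene (right); WT is blue, *Plxnb1-/-* is orange, and circles, squares and triangles are replicates 1, 2 and 3. Members stand in the order of the left panel, and *Gpc2* breaks that order in the right panel, above *Gpc4* and *Gpc6*.

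Summed over the family, the syndecans came to 364, 355 and 373 CPM per kb in WT and 375, 402 and 399 CPM per kb in *Plxnb1-/-* (364 ± 9.14 and 392 ± 14.6, SD, n = 3 each). The genotypes did not overlap, but WT replicate 3 and *Plxnb1-/-* replicate 1 lay close together. The glypican sum was 235 ± 7.39 CPM per kb in WT and 239 ± 14.3 in *Plxnb1-/-*, with overlap. Within the syndecan sum, *Sdc3* took 34.7% to 39.4% in WT and 40.1% to 41.3% in *Plxnb1-/-*, and *Sdc4* took 17.7% to 20.4% and 21.0% to 22.6%. *Sdc1* took 26.8% to 31.1% in WT and 25.1% to 25.7% in *Plxnb1-/-*, and *Sdc2* took 13.4% to 16.4% and 11.5% to 13.4%. All 4 shares were apart between the genotypes, narrowly for *Sdc2* (13.42% and 13.36% at the nearest cultures). Shares of a whole are tied to each other, so these are not 4 separate differences. *Gpc1* made up 81.6% ± 0.558 of the glypican sum in WT and 83.7% ± 1.17 in *Plxnb1-/-*, and *Gpc4* 14.3% ± 0.542 and 12.2% ± 1.06 (SD, n = 3 each). *Gpc6* made up 3.02% and 2.98%, and *Gpc2* and *Gpc3* each less than *Gpc6*. These shares are given as a description, with no test.

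**Figure D4:**
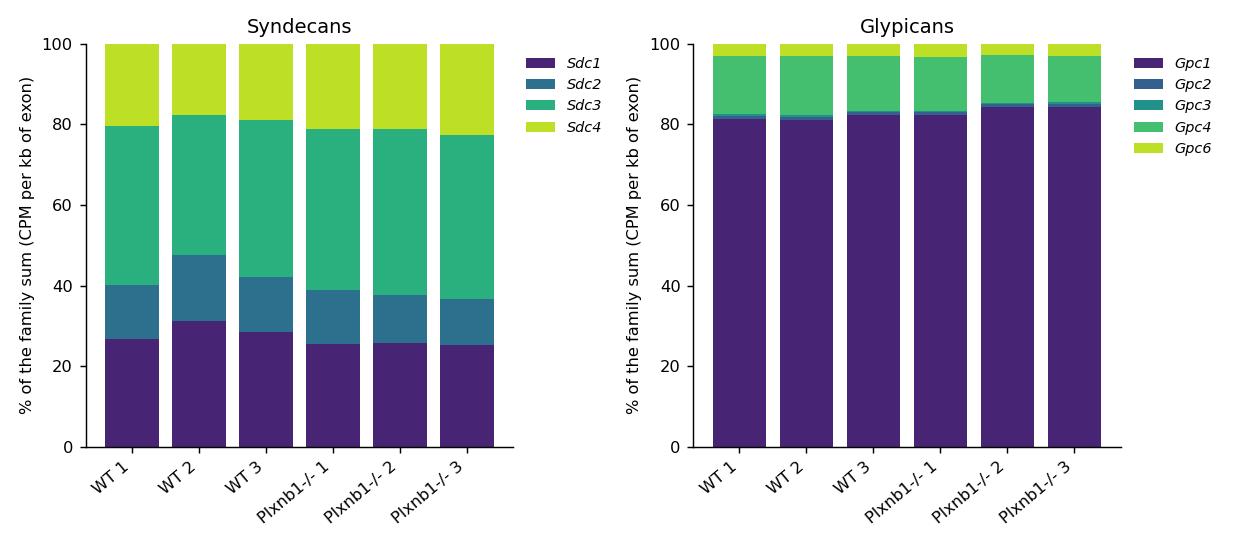
Share of each gene in the summed level of its family (CPM per kb of exon, in percent) for the syndecans (left) and glypicans (right), with 1 bar per culture. *Sdc3* and *Gpc1* hold the largest shares in every culture, and WT 2 has the largest share of *Sdc1* (31.1%) and the smallest of *Sdc3* (34.7%).

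The genes whose pattern over the 6 libraries was most like that of *Sdc4* and *Gpc4*, the syndecan and the glypican with the lowest p, were sought among 10152 genes as those with the smallest root mean square difference of centered log2 CPM. For *Sdc4* they were *Txndc16* (0.0209), *Klhl5* (0.0241) and *Plekha4* (0.0245), which differed between the genotypes by 0.27, 0.26 and 0.30 on the log2 scale. For *Gpc4* they were *Polb* (0.0214), *Zdhhc12* (0.0263) and *Ubxn2a* (0.0268), with log2 fold changes of −0.17, −0.18 and −0.16. None of these 6 genes passed edgeR's test, with adjusted p between 0.273 and 0.324. Since they were picked for the pattern, these values follow from the choice and are a description only, and the points share library, depth and normalization.

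The next question was whether the genes that build, cut, or use heparan sulfate changed beside their core proteins. Of 121 such genes in 11 lists, 115 were tested, 58 were higher and 57 lower in *Plxnb1-/-* cultures, and the median log2 fold change was 0.01. None passed edgeR's test. An unadjusted p below 0.05 was found in 41 of the 115 (20 higher, 21 lower) and no overlap between the genotypes in 42 (20 higher, 22 lower), to be read against the 13.7% and 19.7% of all tested genes given above. DESeq2 called 15, of which 5 were higher and 10 lower, against the background of 2.24%. The lists were chosen with earlier results of these data known, so these counts are a description and no test of the lists. Over the alternatives that kept all libraries, the adjusted p of these 15 genes lay between 0.00116 and 0.440. The fibroblast marker sum was lower in each *Plxnb1-/-* culture than in any WT culture. Its part in these counts was not tested, and *Col1a1* stands both among the markers and among the matrix ligands.

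Of the other heparan sulfate proteoglycans, perlecan (*Hspg2*), agrin (*Agrn*), collagen XVIII (*Col18a1*) and betaglycan (*Tgfbr3*), all 4 were higher in the mean. *Tgfbr3*, a co-receptor for TGF-beta, was at 94.7, 74.0 and 87.9 CPM in WT and 104, 117 and 132 CPM in *Plxnb1-/-*, with no overlap. It was called by DESeq2 (log2 fold change 0.46, adjusted p = 0.00261) and not by edgeR (adjusted p = 0.266). *Col18a1* had the highest level of these genes, at 415 CPM per kb over the 6 libraries, and was the least different (log2 fold change 0.02).

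None of the enzymes that make the chain passed edgeR's test. In the synthesis of the linker to the core protein, 5 of 7 genes were higher and 2 lower, and none reached an unadjusted p below 0.05. The outermost were the phosphatase gene *Pxylp1* (log2 fold change 0.16) and the galactosyltransferase gene *B4galt7* (−0.17), while *B3gat3*, which adds the last sugar of the linker, had the highest level (17.8 CPM per kb). Of the 5 genes of chain polymerization, 2 were higher and 3 lower. *Ext1*, a subunit of the polymerase, averaged 252 ± 20.7 CPM in WT and 222 ± 14.5 CPM in *Plxnb1-/-* (SD, n = 3 each), with a log2 fold change of −0.18 and adjusted p = 0.324 by edgeR, and of −0.11 without WT replicate 2. *Extl3*, which starts the chain, had the highest level (44.0 CPM per kb) and a log2 fold change of 0.03.

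In sulfation and epimerization, which set the binding sites on the chain, 15 of 20 genes were tested, with 7 higher and 8 lower. An unadjusted p below 0.05 was found in 6 of the 15 (3 higher, 3 lower), and 6 did not overlap between the genotypes (2 higher, 4 lower). The shares over all tested genes were 13.7% and 19.7%. The N-sulfotransferase gene *Ndst3* was at 28.9, 21.4 and 25.5 CPM in WT and 32.1, 32.6 and 35.9 CPM in *Plxnb1-/-*, and was called by DESeq2 (log2 fold change 0.41, adjusted p = 0.0128) but not by edgeR (adjusted p = 0.273). *Ndst1*, the form with the highest level of the list (50.8 CPM per kb), had a log2 fold change of 0.14. The 6-O-sulfotransferase gene *Hs6st1* was at 94.2, 165 and 114 CPM in WT and 88.9, 89.2 and 80.2 CPM in *Plxnb1-/-*, a log2 fold change of −0.53 with adjusted p = 0.290 by edgeR and 0.257 by DESeq2. Its highest value again stood in WT replicate 2, and without that culture the log2 fold change was −0.27. *Ndst4*, *Hs6st3*, *Hs3st2*, *Hs3st4* and *Hs3st6* did not pass the filter.

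Of the sulfatases, heparanase and proteases that trim the chains or shed the ectodomains, 11 of 12 were tested (*Mmp7* was not), with 7 higher and 4 lower. The gelatinase gene *Mmp9* was at 5.42, 10.5 and 6.98 CPM in WT and 3.62, 5.28 and 3.61 CPM in *Plxnb1-/-*, with no overlap, and was called by DESeq2 (log2 fold change −0.87, adjusted p = 0.00955) and not by edgeR (adjusted p = 0.273). Without WT replicate 2 its log2 fold change was −0.57. *Adam10*, a membrane protease that sheds many surface proteins, had a log2 fold change of 0.19, and *Mmp14*, the membrane-bound metalloproteinase with the highest level of the list (158 CPM per kb), of −0.12. Of the 8 lysosomal enzymes that degrade heparan sulfate, 5 were higher and 3 lower, from −0.14 for *Sgsh* to 0.25 for *Arsk*, and DESeq2 called 0 of them. By edgeR 3 of the 8 had an unadjusted p below 0.05, against 13.7% of all tested genes.

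The partners of the syndecan tail, PDZ proteins, kinases, and linkers to actin, numbered 12, with 8 higher and 4 lower. *Actn1*, the actin crosslinker alpha-actinin, was at 551, 728 and 574 CPM in WT and 486, 471 and 427 CPM in *Plxnb1-/-*. It was called by DESeq2 (log2 fold change −0.42, adjusted p = 0.00568) and not by edgeR (adjusted p = 0.266). *Prkca*, protein kinase C alpha, was 101 ± 5.66 CPM in WT and 111 ± 2.84 CPM in *Plxnb1-/-* (SD, n = 3 each; log2 fold change 0.13), and *Ezr*, ezrin, had the highest level of the list (196 CPM per kb) and a log2 fold change of 0.12.

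Integrins that work with syndecans went both ways, with 4 higher and 4 lower. *Itgb4*, part of a laminin receptor of SCs, was at 108, 88.5 and 104 CPM in WT and 118, 130 and 153 CPM in *Plxnb1-/-* (log2 fold change 0.42, adjusted p = 0.00706 by DESeq2 and 0.266 by edgeR). *Itga5*, part of the fibronectin receptor, was at 592, 802 and 643 CPM in WT and 551, 537 and 431 CPM in *Plxnb1-/-* (log2 fold change −0.42, adjusted p = 0.0225 by DESeq2 and 0.273 by edgeR). Neither gene overlapped between the genotypes, and without WT replicate 2 the log2 fold change of *Itga5* was −0.28. *Itgb1*, the shared beta chain and the highest of the list (406 CPM per kb), had a log2 fold change of −0.03.

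The matrix ligands had the lowest median of the lists, −0.29, with 9 of 12 genes lower and 3 higher. DESeq2 called 4 of them, all lower, against 2.24% of the genes to which it gave an adjusted p. These were *Fn1* (fibronectin, −0.31), *Tnc* (tenascin-C, −0.28), *Col5a3* (a chain of collagen V, −0.40) and *Col1a1* (a chain of collagen I, −0.30). DESeq2 gave them adjusted p of 0.0452, 0.00566, 0.00570 and 0.0258, and edgeR gave these 4 adjusted p of 0.266 to 0.284. The study itself reports lower *Col1a1*, *Fn1* and *Tnc* from this RNA-seq, and lower staining of their proteins in the nerve bridge of *Plxnb1-/-* mice. *Col5a3* was at 897, 1090.0 and 922 CPM in WT and 755, 806 and 649 CPM in *Plxnb1-/-*, so the genotypes did not overlap. *Col1a1* had the highest level of the matrix genes (859 CPM per kb), and was highest in WT replicate 2. The laminin chains stood at the ends of the list, *Lama1* at −0.60 with 35.2, 100.3 and 58.9 CPM in WT and *Lama5* at 0.48, and neither separated the genotypes. Without WT replicate 2 the log2 fold change was −0.14 for *Lama1*, −0.18 for *Fn1* and −0.19 for *Col1a1*, and for *Lama5* it was 0.31 without *Plxnb1-/-* replicate 3.

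Among 17 growth factors that bind heparan sulfate, 5 were higher and 12 lower. *Fgf1* was at 22.1, 15.1 and 20.0 CPM in WT and 24.0, 29.1 and 33.2 CPM in *Plxnb1-/-*, and was called higher by DESeq2 (log2 fold change 0.59, adjusted p = 0.00557) but not by edgeR (adjusted p = 0.273). *Nrg1*, the SC growth factor neuregulin, was at 25.5, 28.6 and 24.0 CPM in WT and 20.6, 19.8 and 18.5 CPM in *Plxnb1-/-*, and was called lower by DESeq2 (log2 fold change −0.41, adjusted p = 0.00116) but not by edgeR (adjusted p = 0.220). *Vegfa* (−0.45) and *Bmp7* (−0.54) were also called lower by DESeq2, with adjusted p of 0.0194 and 0.0143, and not by edgeR, with 0.273 for both. *Hbegf*, the highest of the list at 90.7 CPM per kb, had a log2 fold change of −0.04.

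Of 16 receptors that work with heparan sulfate, 8 were higher and 8 lower. *Robo2*, a Slit receptor, was at 44.9, 29.5 and 44.9 CPM in WT and 54.9, 52.8 and 58.3 CPM in *Plxnb1-/-*, and was called by DESeq2 (log2 fold change 0.47, adjusted p = 0.0242) but not by edgeR (adjusted p = 0.275). Without WT replicate 2 its log2 fold change was 0.30. *Fgfr1*, the FGF receptor with the highest level of the list (56.0 CPM per kb), had a log2 fold change of −0.10, and *Fgfr3*, averaging 2.64 ± 0.356 CPM in WT and 1.91 ± 0.189 CPM in *Plxnb1-/-* (SD, n = 3 each), of −0.47.

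**Figure D5:**
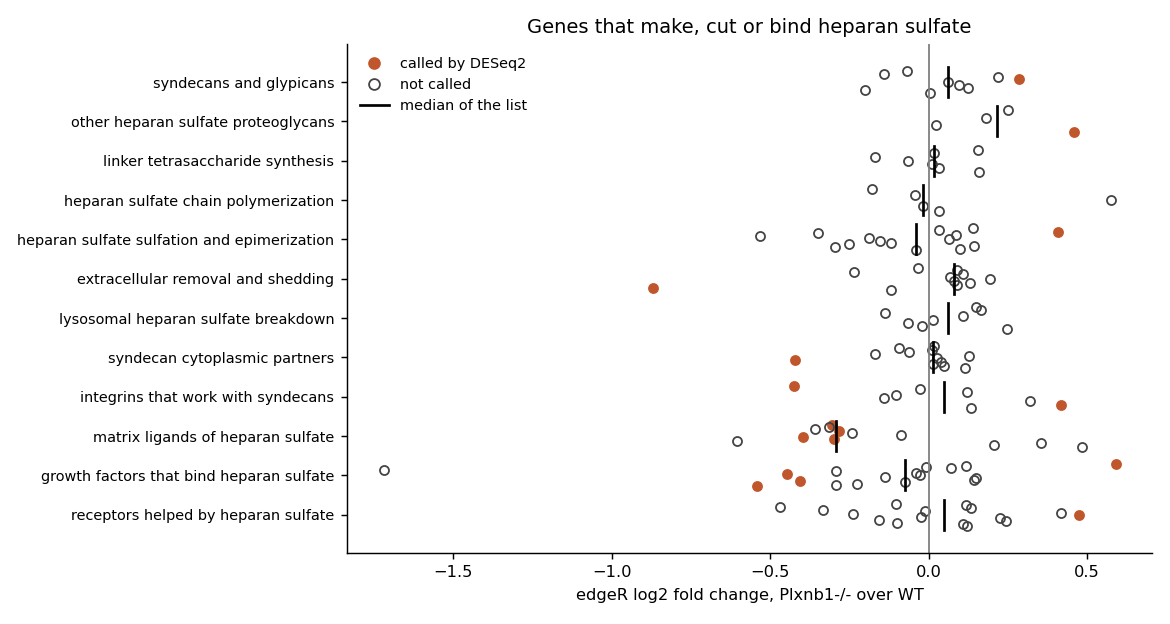
The edgeR log2 fold change, *Plxnb1-/-* over WT (horizontal axis), of every tested gene of the 9 members (top row) and of 11 lists of genes that make, cut, bind or work with heparan sulfate, with 1 circle per gene and a bar at the median of the list; filled circles are called by DESeq2. The matrix ligands have the lowest median (−0.29), and *Sdc4* is the only filled circle among the members.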

How the data were processed

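Bulk RNA-seq of poly(A) RNA from 3 WT and 3 *Plxnb1-/-* SC cultures was analysed, grouped by the genotype in the labels. According to the labels and the study's methods, the authors trimmed reads (Trim Galore 0.6.5), aligned them to mm10 with Bowtie2 2.4.1, which does not splice reads across introns, removed duplicates (SAMtools 1.10) and deposited unnormalized counts on exons per gene from featureCounts, whose strand setting is not given in the sources used here. The authors also deposited FPKM values, and in 99.52% of 13619 genes with 100 or more counts the length behind them is, within 1%, the span of the gene.

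Identifiers were matched with the version dropped to a GENCODE annotation of GRCm38, the same assembly as mm10 but an older release than the authors' (55141 of 55401 matched). Genes with 2 or more counts in 5 or more libraries were compared with edgeR 4.0.16 (R 4.3.3, TMM factors, quasi-likelihood test, no term besides genotype, Benjamini-Hochberg adjustment over 22318 genes) and called where the adjusted p was under 0.05 and the log2 fold change exceeded 0.25 in size. The study's tool, DESeq2 1.42.0, used the same genes and cutoffs and left 7358 genes without an adjusted p. Standard errors come from the log2 fold change and edgeR's F. Near copies were sought with BLAST 2.17.0. Tables were made with Python 3.11.15 and pandas 2.3.3. The tests were tried on simulated data. The members and lists were chosen with earlier results of these data known. From each list, genes called by either tool, the outermost in either direction with a mean of 1 CPM or more, and the highest per kb were named, and of the markers those at the ends of the level range. Some genes that this rule names are not reported here. Genes overlapping or resembling a member, *Hspg2*, *Agrn*, and the other fibroblast markers were added after their values were seen. Library totals lay between 59252048 and 77280964 counts, and Pearson's r of log2 counts across genes between libraries was 0.9911 to 0.9927. No library pair was close to identical.

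Alternatives were other normalization factors, filters, dispersion estimates and tools (DESeq2, limma-voom and limma 3.58.1 on log2 FPKM plus 0.1 or 1), no fold cutoff, a replicate block, each library left out in turn, and the deposited FPKM for the level order. Protein sequences were not used here.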

Additional observations from a re-analysis of the deposited data

How the results depend on the processing

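Of 153 alternative values of the members' log2 fold changes, 146 kept their direction and their side of the threshold. In 2, *Sdc4* came to pass it, at 0.29 by DESeq2 (0.2859) and in edgeR without a filter on low counts (0.2887). The 5 that reversed belong to *Gpc6*, whose estimate lay near 0, and to *Gpc3*, at 0.13 in the main fit with an SE of 0.17. *Gpc3* ranged from −0.04 to 0.27 when 1 library was left out and was −0.0411 without *Plxnb1-/-* replicate 3. *Gpc6* was −0.0043 with upper-quartile factors and ranged from −0.01 to 0.033 when 1 library was left out. DESeq2 and edgeR without the filter called 1 and 1 of the members, 15 and 14 of the related genes, and 335 and 296 genes in all. Every other alternative called 0 members and 0 related genes. Against 8 genes in all, limma on log2(FPKM + 0.1) and on log2(FPKM + 1) called 3 each, and leaving out 1 library gave 4 to 25. The 25 came without WT replicate 2, and *Plxnb1-/-* replicates 1, 2 and 3 left out gave 5, 4 and 4; the cause was not tested. The replicate block called 5 genes in all and 0 members. Same-numbered libraries deviated together hardly at all (correlations of −0.0218, 0.00782 and 0.0653), so the numbers were not taken as pairs. On the deposited FPKM scale 3 members changed place in the level order. *Gpc3* had the fewest reads of the members, 126 to 206 counts per library, and the largest SE, 0.17.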
